A study of Mus musculus with 32 samples.

Results

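Heat shock proteins, chaperonins and cochaperones were followed in the gastrocnemius (GAS) muscle of mice after the sciatic nerve was cut. The set held 45 genes, taken by symbol from a fixed list, of the 33397 genes in the deposited table. They were sorted by role into 10 groups, and the set comprised 2 HSP90 genes, 7 HSP70 and HSP110 genes, 3 mitochondrial chaperones, 7 small heat shock proteins, 3 BAG cochaperones, 6 J-domain cochaperones, the 8 subunits of the CCT chaperonin, 2 myosin chaperones, 5 HSP90 cochaperones and 2 heat shock factors. All 45 passed the filter on low values, and the lowest number of fragments behind any of them in any sample was 10.

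RNA sequencing covered whole GAS muscles of C57BL/6 mice at 0, 1, 3, 5, 7, 14, 21 and 28 d, with 4 samples in each of the 8 groups. The animals of the study were male C57BL/6J mice aged 6 to 8 weeks whose left sciatic nerve was cut by removing a short piece. Every sample, 0 d included, carries the label of sciatic nerve transection, and the 0 d samples served here as the undenervated reference. The study describes its samples as biologically independent. Columns of the table name 1 of the 7 later days or, in 4 cases, carry the letter C, and those 4 were taken as 0 d because every other day had its own columns, so each comparison with 0 d rests on that reading. A whole muscle holds fibres, vessels, connective tissue, nerve and immune cells, and in such a sample fewer cells of a type and less RNA per cell cannot be told apart.

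Chaperones bind unfolded or partly folded proteins and keep them from clumping while they fold. HSP70 takes up exposed stretches with the help of J-domain proteins, which deliver clients, and of BAG and HSP110 proteins, which let the bound nucleotide go. HSP90 completes the folding of kinases, receptors and myosin, the barrel-shaped chaperonins enclose single proteins such as actin and tubulin, and small heat shock proteins hold damaged proteins at the Z-disc and other structures of the muscle fibre. Heat shock factors switch on many of these genes through repeats of the letters GAA and TTC in their promoters.

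Because the letters that heat shock factors read are known, the promoters were searched for them first. RefSeq windows of 250 bases before and 50 bases after the transcription start (build GRCm38.p6) were found for 37 of the 45 members, and none for Hsp90aa1, Hsp90ab1, Hspa8, Hspa9, Hspb2, Cryab, Cct4 and Hsf1. A two-unit match was either GAANNTTC or TTCNNGAA, each of which reads the same on both strands, and a three-unit match was GAANNTTCNNGAA or its reverse complement TTCNNGAANNTTC, which contain the two-unit matches. At least 1 two-unit match lay in the windows of 18 of the 37 members (48.6%), against 17% of the 27025 genes with a window. Three-unit matches lay in the windows of 5 members (13.5%), against 0.662% of all genes. Those 5 were Chordc1, Dnajb6, Hspd1, Hspe1 and Hsph1.

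Windows are shown for the small heat shock proteins with the largest rises (Hspb8, Hspb1 and Hspb7), for 3 members with a three-unit match that rose (Hsph1, Dnajb6 and Hspe1) and for Chordc1, which has the most matches and was called on no day. Each runs 5′ to 3′ on the strand of its gene, in lower case, with every match in capitals.
Hspb8 (chr5:116422815-116423114, minus strand): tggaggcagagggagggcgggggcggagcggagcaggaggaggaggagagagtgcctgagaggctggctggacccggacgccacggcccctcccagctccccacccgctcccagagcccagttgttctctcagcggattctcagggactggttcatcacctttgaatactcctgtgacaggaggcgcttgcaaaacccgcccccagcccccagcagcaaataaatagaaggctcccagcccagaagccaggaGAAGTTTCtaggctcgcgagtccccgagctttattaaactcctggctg
Hspb1 (chr5:135887669-135887968, plus strand): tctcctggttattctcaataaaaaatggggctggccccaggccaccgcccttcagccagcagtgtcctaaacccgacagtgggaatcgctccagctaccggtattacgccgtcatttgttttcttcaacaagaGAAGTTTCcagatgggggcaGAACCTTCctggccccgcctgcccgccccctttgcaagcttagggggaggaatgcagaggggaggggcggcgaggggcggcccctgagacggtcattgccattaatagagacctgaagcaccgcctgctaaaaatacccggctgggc
Hspb7 (chr4:141420529-141420828, plus strand): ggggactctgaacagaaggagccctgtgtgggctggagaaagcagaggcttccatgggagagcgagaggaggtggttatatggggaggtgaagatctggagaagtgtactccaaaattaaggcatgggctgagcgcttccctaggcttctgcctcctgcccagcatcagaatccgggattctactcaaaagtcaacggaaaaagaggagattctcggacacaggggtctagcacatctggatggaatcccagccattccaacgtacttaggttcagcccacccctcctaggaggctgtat
Hsph1 (chr5:149636266-149636565, minus strand): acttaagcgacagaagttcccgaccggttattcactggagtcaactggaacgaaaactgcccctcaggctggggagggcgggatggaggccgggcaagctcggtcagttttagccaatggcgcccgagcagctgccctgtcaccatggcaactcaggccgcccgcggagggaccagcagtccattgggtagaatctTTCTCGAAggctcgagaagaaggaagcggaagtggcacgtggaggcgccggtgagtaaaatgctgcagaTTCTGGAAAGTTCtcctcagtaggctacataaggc
Dnajb6 (chr5:29735648-29735947, plus strand): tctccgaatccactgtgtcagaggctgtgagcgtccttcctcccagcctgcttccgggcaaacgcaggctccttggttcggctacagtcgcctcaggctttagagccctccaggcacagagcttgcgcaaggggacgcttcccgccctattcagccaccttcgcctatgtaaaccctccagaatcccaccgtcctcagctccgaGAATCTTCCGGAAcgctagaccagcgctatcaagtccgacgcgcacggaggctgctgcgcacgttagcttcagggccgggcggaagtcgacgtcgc
Hspe1 (chr1:55087898-55088197, plus strand): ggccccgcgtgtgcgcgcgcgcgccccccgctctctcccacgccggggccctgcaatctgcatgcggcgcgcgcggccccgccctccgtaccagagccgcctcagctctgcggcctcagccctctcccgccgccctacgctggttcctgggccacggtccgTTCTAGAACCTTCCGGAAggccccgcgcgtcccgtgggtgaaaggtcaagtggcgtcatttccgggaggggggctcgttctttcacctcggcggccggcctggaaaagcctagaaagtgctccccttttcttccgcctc
Chordc1 (chr9:18292017-18292316, plus strand): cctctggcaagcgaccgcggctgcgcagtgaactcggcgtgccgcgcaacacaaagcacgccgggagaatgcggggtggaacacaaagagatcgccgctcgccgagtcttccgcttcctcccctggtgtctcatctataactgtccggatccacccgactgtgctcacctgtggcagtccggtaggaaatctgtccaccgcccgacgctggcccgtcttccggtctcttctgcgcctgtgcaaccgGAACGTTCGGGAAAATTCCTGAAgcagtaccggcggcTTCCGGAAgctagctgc
Hspb8 held 1 two-unit match, Hspb1 held 2 and Hspb7 none, although all 3 genes rose strongly. The Hspe1 and Hspd1 genes lie head to head on chromosome 1, and their windows share 285 bases, so both print the same element from opposite strands. A gene was called higher where limma gave an adjusted p under 0.05 and at least a 1.5-fold rise over 0 d. At 1 d (6.34% of all genes), this held for 6 of the 18 members with a two-unit match and 4 of the 19 without, with median log2 changes of 0.54 and 0.32, and 3 and 1 of them kept the call under the median-ratio scaling described further on. The 3 d numbers (13.2% of all genes) were 11 of 18 and 12 of 19, with medians of 0.83 and 0.68 and 9 of each kept, and those of 28 d (14.2%) 11 of 18 and 11 of 19, with medians of 0.84 and 0.83 and 7 and 4 kept. Among the 5 members with a three-unit match, 1 was called at 1 d, 4 were at 3 d (median 1.11) and 2 were at 28 d (median 0.11). Scaling kept 1, 3 and 1 of these calls, with medians of 0.22, 0.88 and -0.27. Of all genes, 4.14%, 9.01% and 6.58% were called higher after scaling at 1, 3 and 28 d. These differences between members were not tested. A match describes the letters of a window and not binding by a factor.

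Sequencing depth, recovered from the table, ranged from 14199898 to 17561590 fragments a sample. Markers of muscle fibres summed to 26656 to 55063 FPKM, whereas the 6 retina markers, which were looked at because the labels' extraction text speaks of retinas, summed to at most 0.222 FPKM. Mitochondrial genes took 14.5% to 18.2% of the fragments at 0 d and 6.7% to 17.1% later. FPKM, the fragments of a gene relative to its exon length and to the total of the sample, depends on that share. The median gene among those averaging 1 FPKM or more stood above 0 d at 1, 3, 5, 7, 14, 21 and 28 d. On the log2 scale it did so by 0.12, 0.20, 0.31, 0.32, 0.32, 0.24 and 0.30 in turn. What part the mitochondrial share had in this was not tested. Changes were therefore also computed after median-ratio scaling, which brings that median to within 0.03 of 0 at 1 to 28 d, and a change that kept its call there is described as held under both scalings. Replicate 1 of 3 d stood apart, at -20.3 on the first principal component against 0.18 to 5.96 for the other 3.

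The first question was how many chaperone genes moved, and when. A gene was called when limma, on log2(FPKM + 1) in all 32 samples, gave a Benjamini-Hochberg adjusted p under 0.05 and at least a 1.5-fold change, and all 7 days were compared with the same 0 d samples. At 1 d, 12 of the 45 members were higher and 2 lower, where 6.34% of all 22071 genes tested were higher and 2.49% lower. At 3 d the numbers were 29 and 2, against 13.2% and 6.03% of all genes. At 5 d, 31 were higher and 2 lower, against 14.9% and 3.86% of all genes. Counts then stayed similar, with 26 higher and 3 lower for 7 d (15.4% and 4.1% of all genes), 25 and 2 for 14 d (14.6% and 3.83%), 25 and 2 for 21 d (11.8% and 3.93%) and 27 and 1 for 28 d (14.2% and 4.1%). The median member stood above 0 d by 0.39, 0.82, 0.77, 0.62, 0.72, 0.79 and 0.83 on the log2 scale over the 7 days, whereas the median of all genes tested moved by 0.03 to 0.15. Those include many weakly expressed genes, and among genes averaging 1 FPKM or more the median moved by 0.12 to 0.32.

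**Figure D1:**
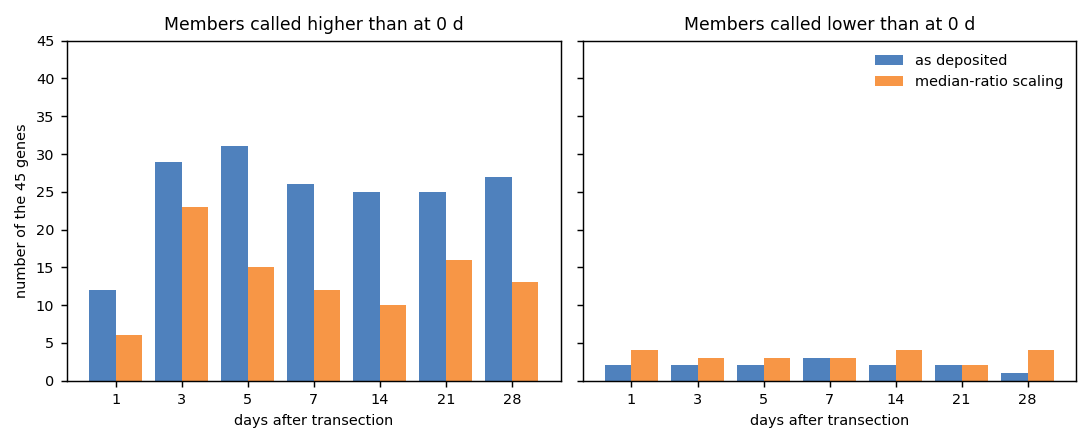
Number of the 45 members called higher (left) or lower (right) than at 0 d on each day, with the values as deposited (blue) and after median-ratio scaling (orange). As deposited, the count of higher members goes from 12 at 1 d to 31 at 5 d, and after scaling it is largest at 3 d, with 23.

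Scaling by the median ratio lowered the counts of higher members, raised or kept those of lower members, and left the largest number of higher members at 3 d. Under quantile normalization that day did not have the largest number, with 21 higher against 23 for 21 d and 24 for 28 d. After median-ratio scaling, 6 members were higher and 4 lower at 1 d, where 4.14% of all genes were higher and 4.68% lower. The 3 d samples had 23 higher and 3 lower (9.01% and 9.16% of all genes), those of 5 d 15 and 3 (6.7% and 7.69%) and those of 7 d 12 and 3 (7.15% and 7.92%). Later samples gave 10 and 4 for 14 d (6.58% and 7.54%), 16 and 2 for 21 d (6.44% and 7.16%) and 13 and 4 for 28 d (6.58% and 8.11%). Every member called higher after scaling was also called higher as deposited. The median member was then 0.22, 0.61, 0.40, 0.31, 0.35, 0.49 and 0.45 above 0 d.

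Across days, 38 members were called higher on at least 1 day, 5 lower on at least 1 day (Hspb2, Hspb3, Hspb6, Dnajb5 and Smyd1), 1 in both directions (Hspb3) and 3 on no day (Bag2, Fkbp4 and Chordc1). Of all genes tested, 25.7% were higher and 8.19% lower on at least 1 day. After median-ratio scaling 28 members were higher and 8 lower on at least 1 day, against 15.8% and 13.8% of all genes. Hsp90aa1, Hspa8, Hsph1, Hspb1, Hspb7 and Cct3 were higher on all 7 days, as were 1.92% of all genes. From 3 to 28 d without a gap, 19 members were higher, 7 of them under both scalings (Hsp90aa1, Hsp90ab1, Hspb1, Hspb7, Hspb8, Dnajb6 and Cct3), against 5.92% and 2.5% of all genes. As deposited, the highest mean fell at 3 d for 23 members and at 5 d for 9, and at 28 d for 5. Such days were not counted over all genes or after scaling, so this does not set the members apart.

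**Figure D2:**
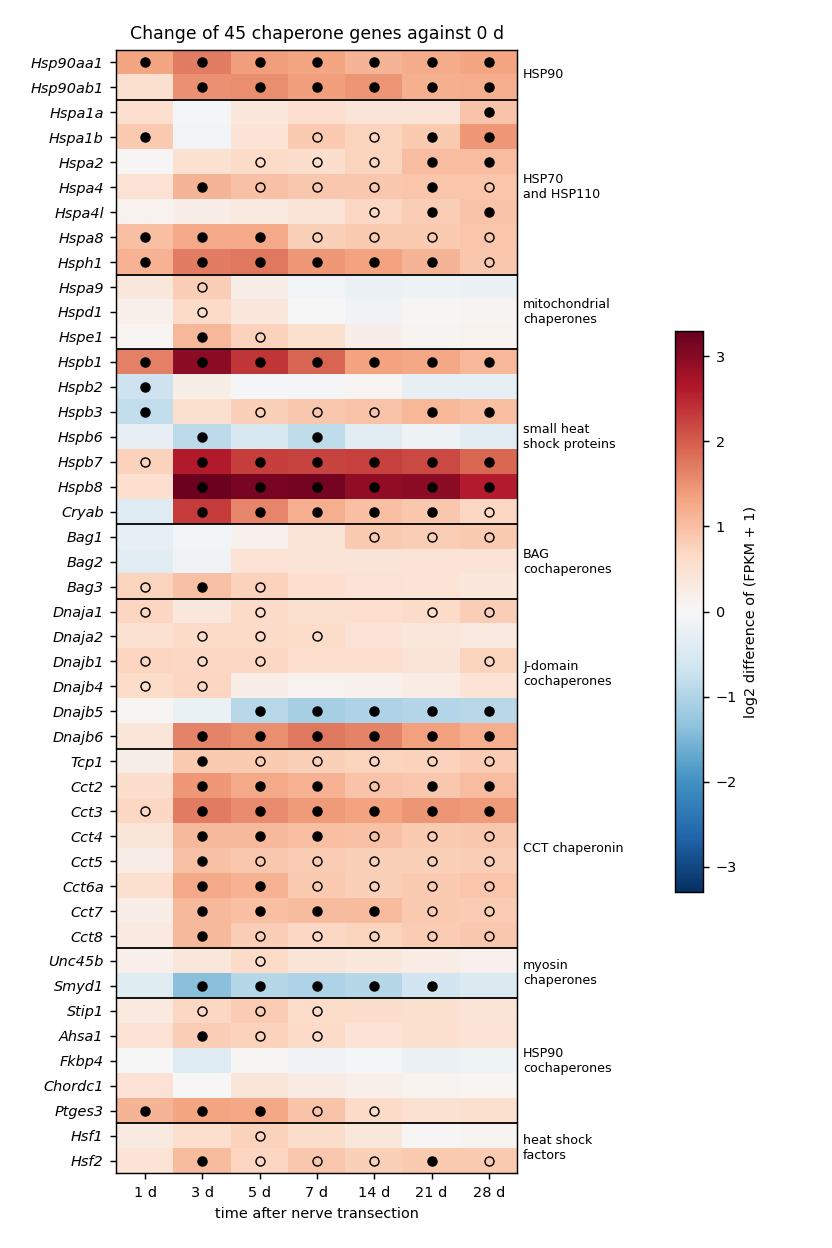
Log2 difference of (FPKM + 1) between each day and 0 d for the 45 members (rows, by role) over the 7 days (columns), red for higher and blue for lower. Circles mark called changes, filled where the call held after median-ratio scaling. The strongest reds belong to Hspb8 from 3 to 28 d and to Hspb1 and Hspb7 at 3 d, and circles mark the falls of Dnajb5 from 5 to 28 d and of Smyd1 from 3 to 21 d.

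Small heat shock proteins showed the largest changes of the set, and they moved in different directions. Hspb1, Hspb7, Hspb8 and Cryab rose several-fold by 3 d under both scalings, Hspb6 fell, and Hspb2 and Hspb3 fell at 1 d. Summed over the 7 genes, their level was 1217 ± 161 FPKM (SD, n = 4) at 0 d and 1558 ± 42.7 at 1 d, and it reached 6275 ± 471 by 3 d before falling to 3099 ± 189.9 by 28 d.

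Hspb8 encodes a small heat shock protein that works with BAG3 in the removal of damaged muscle proteins. It lies on chr5:116408491-116422864 (GRCm38, minus strand), and its largest change was at 3 d. The 0 d samples read 225, 198, 255 and 243 FPKM and the 3 d samples 2252, 1991, 2167 and 2271. All 3 d samples lay far above all 0 d samples. The log2 change was 3.23 (SE 0.09, 9.41-fold, limma adjusted p = 4.31e-21), and 3.00 after median-ratio scaling. The 1 d change was 0.57 (1.48-fold, not called). Levels stayed high, and the 28 d samples read 1363, 1388, 1374 and 1438 FPKM, 2.59 above 0 d on the log2 scale.

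Hspb1 (HSP27), which binds actin filaments, had the largest rise of the group at 1 d. Its samples read 154, 147, 145 and 126 FPKM at 0 d and 452, 449, 484 and 445 at 1 d. At 3 d they read 908, 1316, 1089 and 1171, and the groups of 0, 1 and 3 d did not overlap. The log2 changes were 1.67 (SE 0.10) at 1 d and 2.95 (SE 0.10, 7.74-fold, limma adjusted p = 3.84e-19) at 3 d, and the level then came down to 307 ± 42.0 FPKM (SD, n = 4) at 28 d, still 1.09 above 0 d. Hspb7, a heart and muscle protein of the Z-disc and thin filament, went from 163, 174, 105 and 99.7 FPKM at 0 d to 681, 925, 825 and 831 at 3 d, a log2 change of 2.62 (SE 0.13). All 3 d samples were above all 0 d samples, and the later changes were 2.28 at 5 d, 2.17 at 21 d and 1.89 at 28 d. Its rise of 0.76 at 1 d was called as deposited but not after median-ratio scaling (0.57).

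Cryab (alpha B-crystallin, a chaperone of desmin and other fibre proteins) took a different path. The 0 d samples read 475, 442, 349.9 and 321 FPKM, the 1 d samples 279, 278, 337 and 279, and the 3 d samples 1570, 2166, 2110 and 2022. At 1 d, 3 of the 4 samples lay below every 0 d sample, with a log2 change of -0.42 as deposited, short of 1.5-fold, and of -0.61 after median-ratio scaling, which was called. At 3 d every sample was above every 0 d sample, with a log2 change of 2.31 (SE 0.12, 4.97-fold, limma adjusted p = 1.11e-15). Its level fell step by step afterwards, and the change of 0.70 at 28 d was lost after median-ratio scaling (0.31).

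Hspb2, whose gene lies head to head with Cryab on chromosome 9 (chr9:50751078-50752354, minus strand, against chr9:50751325-50756636, plus strand), did not share that rise. Its samples read 16.3, 14.6, 11.9 and 12.6 FPKM at 0 d, 6.67, 7.64, 10.5 and 8.21 at 1 d and 13.2, 18.9, 14.2 and 17.9 at 3 d. The 1 d samples were below all 0 d samples (log2 change -0.69, SE 0.13, limma adjusted p = 0.000122), and the 3 d samples overlapped them (0.19, limma adjusted p = 0.254). After median-ratio scaling it was called lower at 28 d too (-0.62). Within each sample the log2 ratio of Cryab to Hspb2, which no scaling between samples can alter, was 4.83 ± 0.11 (SD, n = 4) at 0 d, 6.94 ± 0.18 at 3 d and 5.81 ± 0.10 at 28 d. The exons of this pair share 252 bases on opposite strands, and whether counting used the strand is not given in the sources used here.

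Hspb3 and Hspb6 completed the group. Hspb3, a partner of HSPB2 in muscle, read 31.7, 23.4, 22.4 and 27.0 FPKM at 0 d, 13.8, 15.9, 13.3 and 14 at 1 d and 47.3, 61.1, 57.1 and 59.9 at 21 d. It was thus lower at 1 d (log2 change -0.82) and higher at 21 d (1.08), without overlap and under both scalings, and its calls of 0.78 to 0.95 from 5 to 14 d were lost after scaling. Hspb6 (HSP20), a binding partner of actin and 14-3-3 proteins, read 295, 346, 240 and 205 FPKM at 0 d and 130.2, 167, 137 and 152 at 3 d. All 3 d samples lay below the 0 d samples, and the log2 change was -0.86 (SE 0.13, limma adjusted p = 1.73e-06). Its fall was called at 3 and 7 d as deposited, and also at 5, 14 and 28 d after median-ratio scaling.

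**Figure D3:**
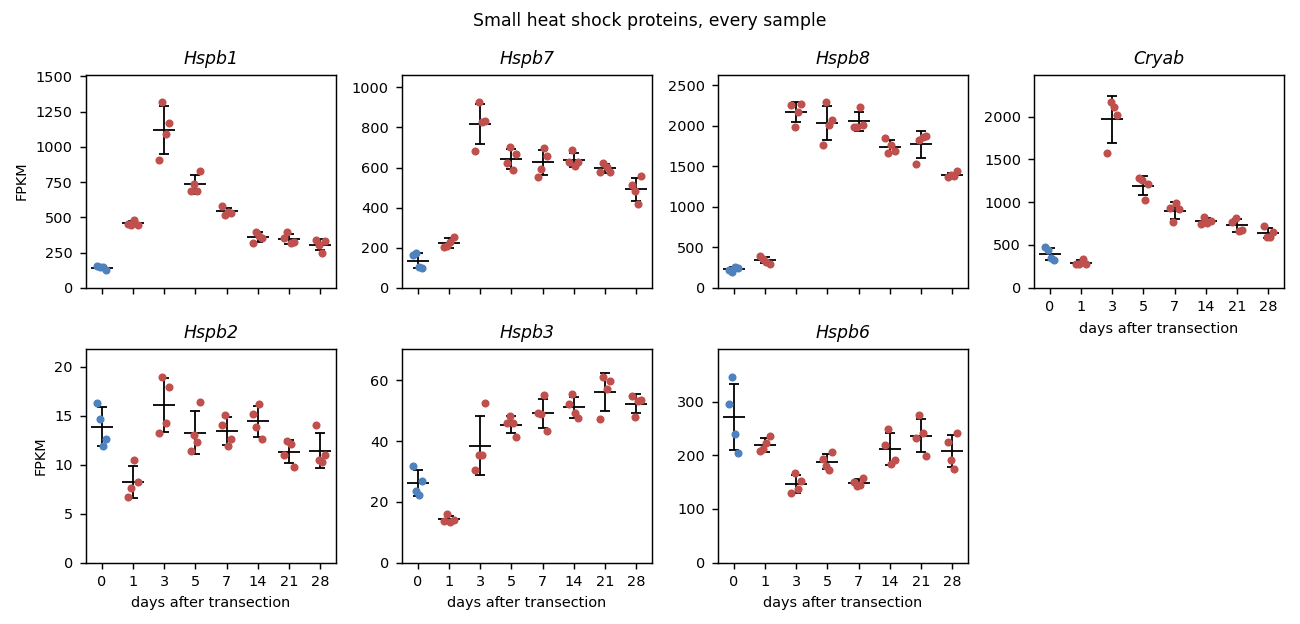
FPKM of the 7 small heat shock proteins in every sample (points, 4 per day, blue at 0 d and red later) with the mean and SD (black), on linear axes from 0. Hspb8 stays high from 3 d (mean 2170 FPKM) to 28 d (1391), Hspb1 and Cryab peak at 3 d and decline, and Hspb2 and Hspb3 dip at 1 d.

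Both HSP90 genes rose. Hsp90aa1, the inducible form, read 21.1, 17.9, 18.2 and 22.6 FPKM at 0 d, 51.5, 49.2, 51.8 and 49.9 at 1 d and 57.6, 65.2, 74.2 and 70.8 at 3 d. No 1 d or 3 d sample reached down to 0 d, and the log2 changes were 1.31 (SE 0.08) at 1 d and 1.70 (SE 0.08, 3.24-fold, limma adjusted p = 5.01e-16) at 3 d. Hsp90ab1, the constitutive form, was far more abundant per length and moved later, from 305 ± 23.9 FPKM (SD, n = 4) at 0 d to 440.5 ± 45.2 at 1 d, where the change of 0.53 was not called, and 869 ± 13.9 at 3 d (log2 change 1.51). The log2 ratio of Hsp90aa1 to Hsp90ab1 within samples was -3.94 ± 0.25 at 0 d, -3.12 ± 0.13 at 1 d and -3.71 ± 0.15 at 3 d, so the 1 d samples were the ones with relatively more Hsp90aa1. Both genes were called higher on all days from 3 to 28 d under both scalings.

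HSP90 cochaperones were read against all genes, of which 6.34%, 13.2%, 14.9%, 15.4%, 14.6%, 11.8% and 14.2% were higher over the 7 days in turn. After median-ratio scaling those shares were 4.14%, 9.01%, 6.7%, 7.15%, 6.58%, 6.44% and 6.58%. Of the 5 cochaperones, 1, 3, 3, 3, 1, 0 and 0 were higher over the same days, and 1, 2, 1, 0, 0, 0 and 0 after that scaling. Ptges3 (p23, which steadies the closed form of HSP90) was the one that moved most, from 22.9, 20.6, 26.0 and 21.8 FPKM at 0 d to 60.6, 50.3, 61.6 and 57.8 at 3 d. The groups were well apart, with a log2 change of 1.30 (SE 0.08, 2.46-fold, limma adjusted p = 5.51e-14). It was already 1.12 above 0 d at 1 d and was back to 0.54, under 1.5-fold, at 28 d. Its calls at 7 and 14 d were lost after median-ratio scaling. Ahsa1, an activator of the HSP90 ATPase, and Stip1, which links HSP70 to HSP90, reached 0.82 at 3 d and 0.83 at 5 d, and of their calls that of Ahsa1 at 3 d alone held after median-ratio scaling. Fkbp4 and Chordc1 were not called, with changes of -0.43 to 0.04 and 0.00 to 0.49, although Fkbp4 at 3 d passed after median-ratio scaling as lower (-0.66).

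HSP70 and HSP110 genes differed in timing. Hspa8, Hsph1 and Hspa4 had their highest means at 3 or 5 d, and Hspa1a, Hspa1b, Hspa2 and Hspa4l at 21 or 28 d. The genes called at 1 d were Hspa8, Hsph1 and Hspa1b. Over the 7 days in turn, 3, 3, 4, 5, 6, 6 and 7 of the 7 genes were higher as deposited, and 3, 3, 2, 1, 1, 5 and 4 once scaled by the median ratio. Of all genes, 6.34% to 15.4% were higher as deposited and 4.14% to 9.01% once scaled, with 7.15% at 7 d and 6.58% at 14 d.

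Hsph1 (HSP110), a nucleotide exchange factor of HSP70, changed most at 5 d. Its samples read 10.1, 9.83, 12.9 and 11.9 FPKM at 0 d and 38.8, 41.2, 38.7 and 38.7 at 5 d. Those groups did not overlap, and the log2 change was 1.74 (SE 0.08, 3.33-fold, limma adjusted p = 1.84e-16). Hspa8 (HSC70), the constitutive HSP70, went from 226, 211, 204 and 191 FPKM at 0 d to 450, 408, 424 and 385 at 1 d, a log2 change of 1.00 (SE 0.06), and reached 1.25 at 3 and 5 d. From 7 to 28 d it was 0.79 to 0.93 above 0 d, and those calls were lost after median-ratio scaling. Its exons contain 3 small nucleolar RNA genes, Snord14c, Snord14d and Snord14e, over 262 bases. Hspa4, a relative of Hsph1, was higher from 3 d on, by 1.13 at 3 d and 0.89 to 0.96 later, and its calls at 5, 7, 14 and 28 d were lost after median-ratio scaling.

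The inducible HSP70 genes Hspa1a and Hspa1b (chr17:34969190-34972156 and chr17:34956436-34959238) were among the least expressed members. Hspa1b read 2.11, 2.01, 2.22 and 1.69 FPKM at 0 d, 4.37, 4.34, 5.31 and 3.95 at 1 d, 0.326, 2.60, 2.48 and 2.85 at 3 d and 9.41, 8.45, 4.75 and 6.55 at 28 d. The 1 d and 28 d samples were all above 0 d, and the 3 d samples were not. Log2 changes were 0.87 (SE 0.26, limma adjusted p = 0.0112) at 1 d, -0.08 at 3 d and 1.43 (SE 0.26, limma adjusted p = 4.07e-05) at 28 d. Calls of 0.74 to 0.85 from 7 to 21 d held after median-ratio scaling at 21 d alone. Hspa1a was called at 28 d, where its samples read 4.07, 3.87, 1.51 and 2.92 FPKM against 1.01, 1.13, 1.04 and 1.10 at 0 d (log2 change 0.93, SE 0.22). These genes are near-identical copies, so reads may have been divided between them, and Hspa1a also shares 564 exon bases with the antisense gene Gm20481. Without replicate 1 of 3 d, which held the lowest value of both genes, the 3 d changes were 0.16 for Hspa1a and 0.28 for Hspa1b, still not called.

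Hspa4l and Hspa2 had their highest means at 28 and 21 d. Hspa4l, another HSP110 relative, read 0.616, 0.665, 0.700 and 0.678 FPKM at 0 d and 2.40, 2.44, 2.05 and 1.99 at 28 d. Every 28 d sample was above every 0 d sample, and the log2 change was 0.95 (SE 0.09, limma adjusted p = 5e-10), a size that the pseudocount of 1 holds down at such low levels. Hspa2, an HSP70 best known from the testis, was called from 5 d on, with changes of 0.64, 0.59 and 0.74 up to 14 d that were lost after median-ratio scaling. It was 1.03 above 0 d at 21 d and 1.01 at 28 d, under both scalings.

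**Figure D4:**
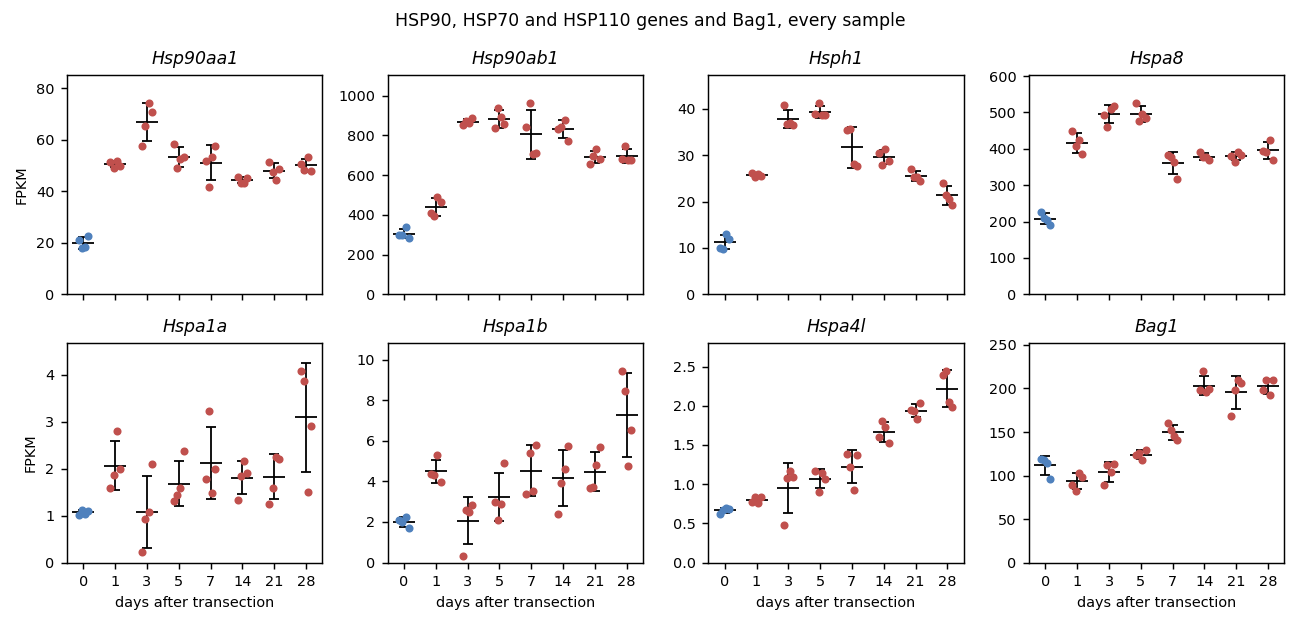
FPKM of 2 HSP90 genes, 5 HSP70 and HSP110 genes and Bag1 in every sample (points, 4 per day, blue at 0 d and red later) with the mean and SD (black), on linear axes from 0. Hsp90aa1, Hsp90ab1, Hsph1 and Hspa8 are highest at 3 or 5 d, Hspa4l climbs to 28 d, and replicate 1 of 3 d is low in Hspa1a, Hspa1b and Hspa4l.

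BAG cochaperones regulate HSP70. Bag3, the partner of HSPB8, read 53.8, 60.6, 59.9 and 51.0 FPKM at 0 d and 107, 109, 112 and 113 at 3 d, again without overlap, a log2 change of 0.96 (SE 0.07, 1.94-fold, limma adjusted p = 8.11e-12). Its calls at 1 and 5 d did not survive median-ratio scaling, that at 3 d did, and the change at 28 d was 0.34. Bag1, which links HSP70 to the proteasome, showed the opposite timing, with 112 ± 11 FPKM (SD, n = 4) at 0 d and 104 at 3 d but 203 ± 11 at 14 d. That rise of 0.86 (SE 0.08) was called at 14, 21 and 28 d (0.80 and 0.86), and none of the 3 calls held after median-ratio scaling (0.46, 0.50 and 0.48). Bag2, an inhibitor of the HSP70-dependent ligase CHIP, changed by -0.34 to 0.48 and was not called.

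Chaperones of the mitochondrial matrix rose briefly. Hspe1 (HSP10, the lid of the HSP60 barrel) read 45.4, 45.3, 39.8 and 41.1 FPKM at 0 d and 105, 97.4, 85.5 and 86.9 at 3 d, a non-overlapping log2 change of 1.10 (SE 0.09, 2.15-fold, limma adjusted p = 7.01e-11). At 28 d it read 48.8, 42.7, 47.8 and 45.6, of which the lowest lay within the 0 d values and the others above them. The mean was then 46.2 FPKM against 42.9 at 0 d, a change that was not called. Hspd1 (HSP60) went from 80.7 ± 2.46 FPKM (SD, n = 4) at 0 d to 126 ± 4.89 at 3 d (0.63), and Hspa9 (mortalin, which pulls proteins into the matrix) from 112 ± 5.67 to 198 ± 14.7 (0.81), and both calls were lost after median-ratio scaling (0.40 and 0.58). All 3 were called at 3 d as deposited, Hspe1 alone at 5 d and none from 7 to 28 d, when the group median was -0.12 to 0.10 as deposited and -0.51 to -0.25 after scaling, where Hspa9 was called lower at 14 d (-0.59). The log2 ratio of Hspe1 to Hspd1 within samples was -0.91 ± 0.07 at 0 d, -0.43 ± 0.18 at 3 d and -0.91 ± 0.12 at 28 d. The exons of these head-to-head genes share 112 bases on opposite strands.

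The CCT chaperonin, which folds actin and tubulin, rose as a whole. All 8 subunit genes were called higher on each of 3, 5, 7, 14, 21 and 28 d as deposited, with log2 changes of 0.69 to 1.73. On those days 11.8% to 15.4% of all genes were higher. Summed over the subunits, the level was 249 ± 8.84 FPKM (SD, n = 4) at 0 d and 326 ± 5.88 at 1 d, and it reached 565 ± 26.4 by 3 d and stood at 478 ± 24.8 by 28 d. Cct3 led the group, with 13.5, 12.3, 13.2 and 11.9 FPKM at 0 d and 44.3, 40.2, 45.2 and 48.4 at 3 d. Its 3 d samples were all more than 3 times the 0 d mean, and the log2 change was 1.73 (SE 0.07, 3.31-fold, limma adjusted p = 3.37e-18). Under median-ratio scaling all 8 were still called at 3 d (0.64 to 1.51), where 9.01% of all genes were higher. On the days that followed 5, 4, 2, 2 and 2 of them were called, against 6.44% to 7.15% of all genes. Cct3 was called on all of those days, and Tcp1, Cct5 and Cct8 at 3 d alone.

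J-domain cochaperones differed from one another. Dnajb6, which keeps aggregation-prone proteins soluble and whose mutation causes a muscular dystrophy, read 15.5, 14.9, 17.1 and 14.1 FPKM at 0 d and 51.6, 61.1, 49.1 and 51.8 at 7 d. These groups were far apart, with a log2 change of 1.73 (SE 0.09, 3.31-fold, limma adjusted p = 1.14e-15), and it was called from 3 to 28 d under both scalings. Dnajb5, another J-domain protein, moved the other way, from 31.2, 32.3, 37.9 and 36.9 FPKM at 0 d to 15.1, 17.0, 15.2 and 15.1 at 7 d (log2 change -1.10, SE 0.08, limma adjusted p = 5.88e-12). Its 1 d and 3 d means, 36.1 and 29.8 FPKM, were near 0 d, and from 5 to 28 d it was called lower under both scalings. Dnaja1, Dnaja2, Dnajb1 and Dnajb4, the general partners of HSP70, were called on 2 to 4 days each with changes of 0.60 to 0.80, and none of those calls held after median-ratio scaling.

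Myosin chaperones also parted. Smyd1, a muscle methyltransferase needed for sarcomere assembly, read 145, 134, 144 and 149 FPKM at 0 d and 48.3, 51.0, 56.8 and 62.3 at 3 d. All 3 d samples were under 63 FPKM, and the log2 change was -1.38 (SE 0.09, limma adjusted p = 9.95e-14). It was lower from 3 to 21 d under both scalings and stood at 102 ± 5.51 FPKM (SD, n = 4) at 28 d, a change of -0.48 that was not called as deposited. After median-ratio scaling it was called lower on all 7 days, by -0.60 at 1 d and -0.87 at 28 d. Unc45b, which folds the myosin head together with HSP90, was called at 5 d, with 63.4, 67.5, 62.8 and 57.7 FPKM against 37.5, 38.0, 41.9 and 42.1 at 0 d (0.64, SE 0.07), a call lost after median-ratio scaling (0.26). The log2 ratio of Unc45b to Smyd1 went from -1.84 ± 0.07 at 0 d to -0.08 ± 0.12 at 3 d and -1.20 ± 0.12 at 28 d.

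**Figure D5:**
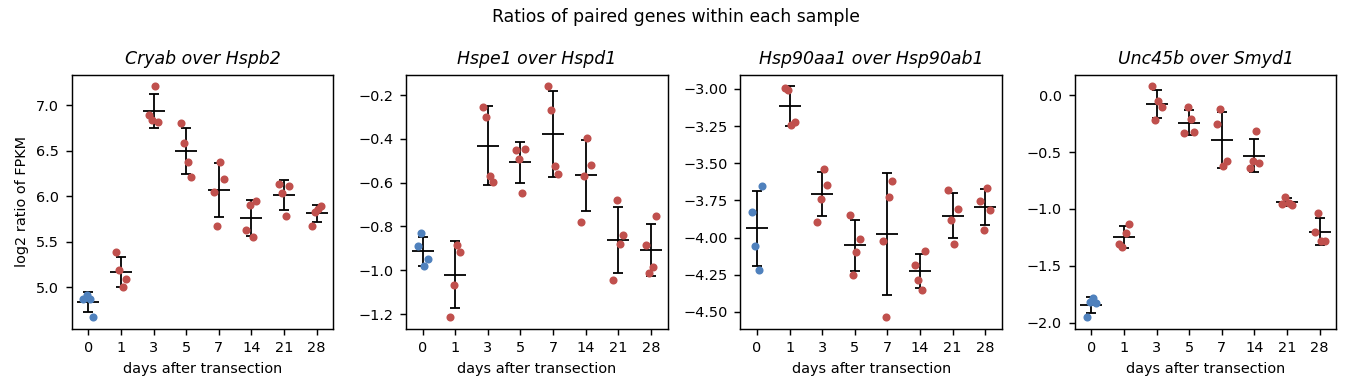
Log2 ratio of the FPKM of 2 genes within each sample (points, 4 per day, blue at 0 d and red later) with the mean and SD (black), for 4 pairs chosen after their values were seen. Cryab over Hspb2 is highest at 3 d (6.94), Hspe1 over Hspd1 is raised from 3 to 14 d, Hsp90aa1 over Hsp90ab1 is raised at 1 d (-3.12), and Unc45b over Smyd1 is highest at 3 d (-0.08).

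The heat shock factors were expressed at low levels. Hsf2 read 4.24, 4.13, 3.83 and 3.58 FPKM at 0 d and 9.56, 8.74, 9.22 and 9.53 at 3 d. No sample of 3 d came near 0 d, and the log2 change was 1.05 (SE 0.06, 2.08-fold, limma adjusted p = 2.58e-15), with calls on all days from 3 to 28 d, of which those at 3 and 21 d held after scaling. Hsf1, the main factor of the heat shock response, was called at 5 d, at 9.13 ± 0.64 FPKM (SD, n = 4) against 5.00 ± 0.25 at 0 d (0.75), and that call was lost after median-ratio scaling (0.42).

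Late and early denervation were then compared directly, 28 d against 3 d, without the 0 d samples in the contrast. At 28 d, 5 members were higher (7.46% of all genes) and 10 lower (4.54%), and all 15 calls held after median-ratio scaling, which called 5 higher and 14 lower (5.43% and 6.27%). The higher ones were Hspa1a (1.00, SE 0.22), Hspa1b (1.52), Hspa4l (0.73), Bag1 (0.95) and Smyd1 (0.90). Among the lower ones were Hspb1 (-1.86, SE 0.10, limma adjusted p = 3.51e-14), Cryab (-1.62), Hspa9 and Hspe1 (both -1.0) and Hsph1 (-0.80), followed by Ptges3, Hspb7, Dnajb5, Hspb8 and Bag3 (-0.76 to -0.61). In the moderated F-test for any difference among 1 to 28 d, 44 members passed an adjusted p of 0.05, where 53.3% of all genes did, and Dnajb1 was the exception (limma adjusted p = 0.428). Dnajb1 passed too after median-ratio scaling (limma adjusted p = 0.0398), where 53% of all genes did.

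Related genes gave the surroundings of the set. Of 63 other chaperone and cochaperone genes, 61 were tested. Over the 7 days in turn, 6, 17, 16, 14, 14, 10 and 14 of them were higher and 1, 2, 0, 0, 0, 0 and 1 lower. Median-ratio scaling left 4, 10, 5, 4, 3, 3 and 2 higher and 1, 5, 4, 4, 4, 4 and 4 lower. The lower genes made up at most 3.28% as deposited, at 3 d, where 6.03% of all genes were lower. After scaling they made up 1.64% at 1 d, 8.20% at 3 d and 6.56% later. Those shares were under the 4.68%, 9.16% and 7.16% to 8.11% of all genes. As deposited, the higher genes made up 9.84% at 1 d, 27.9% at 3 d and 23.0% at 28 d, against 6.34%, 13.2% and 14.2% of all genes. Once scaled, they made up 6.56%, 16.4% and 3.28% against 4.14%, 9.01% and 6.58%, so the share over all genes was the larger one at 28 d, as it also was at 7 d (6.56% against 7.15%), 14 d (4.92% against 6.58%) and 21 d (4.92% against 6.44%). Fkbp5, an HSP90 cochaperone and a target of the glucocorticoid receptor, showed the largest rise, from 3.14 ± 0.64 FPKM (SD, n = 4) at 0 d to 22.7 ± 1.64 at 1 d and 17.1 ± 6.45 at 3 d, and at 5 d it read 3.06 ± 0.38. Dnajc2, a J-domain protein of the ribosome, came next, with 6.86 ± 0.56 at 0 d and 22.5 ± 1.34 at 5 d. The largest falls were those of Dnaja4, from 19.2 ± 3.29 to 9.97 ± 0.38 at 1 d, and Hikeshi, the carrier of HSP70 into the nucleus, from 9.83 ± 0.80 to 5.61 ± 0.38 at 28 d. Dnaja4 was above 0 d later, at 31.2 ± 2.12 by 28 d (log2 change 0.68), and its calls at 21 and 28 d were lost after median-ratio scaling.

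Cell markers moved over the same days. Of 7 macrophage markers, 3 were higher at 1 d, 7 at 3, 5 and 7 d and 6 later, and their summed level went from 140 to 207 FPKM at 0 d to 289 to 987 at 3 d, with 289 in replicate 1 and 499 to 987 in the others. Of the neutrophil markers tested, 3 of 3 were higher at 1 and 3 d and 1 or 2 of 3 later, and the sum of the list went from 1.11 to 1.77 FPKM at 0 d to 6.52 to 89.0 at 1 d and 16.9 to 28.1 at 3 d. Endothelial markers were lower in 3 of 4 at 3 d and 1 of 4 later, and Schwann cell markers in 2 of 5 at 1, 5 and 7 d and 3 of 5 on the other days, beside 1 of 5 higher at 5, 7, 14 and 28 d, with sums of 76.3 to 169 FPKM at 0 d and 9.58 to 24.6 at 3 d. Of 5 fibroblast markers, 3 were higher at 5 d, 2 at 7 d and 1 later. Satellite cell markers were higher in 1 of 4 from 14 d on, adipocyte markers lower in 1 of 4 at 3 d, and 0 of 3 erythroid markers were called. Of 9 muscle fibre markers, 1, 6, 5, 4, 4, 4 and 7 were lower over the 7 days in turn, beside 1 higher at 14, 21 and 28 d, and at 3 d their sum was 26656 to 31651 FPKM against 51401 to 55063 at 0 d. Of 6 slow fibre markers, 6, 5, 2, 2, 1, 1 and 0 were lower over the same days, and 1 was higher at 21 d and 5 at 28 d, and immediate-early genes were higher in 5 of 7 at 1 d and in 3 or 4 of 7 later, beside 1 lower at 5 d. Their part in the changes of the chaperone genes was not tested. Without replicate 1 of 3 d, 32 members were called at 3 d in place of 31, with Hspa2 (0.75) and Hspb3 (0.62) added and Dnaja2 (0.54) lost, and the same number, 15, was called in 28 d against 3 d. Leaving it out after median-ratio scaling, Tcp1 (0.53) and Ahsa1 (0.47) at 3 d and Hspa4l in 28 d against 3 d (0.56) fell short of 1.5-fold.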

How the data were processed

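RNA of 32 GAS muscles was sequenced as 150 bp reads. The authors deposited FPKM values for 33397 genes in 1 table, and the submitters' processing notes name CASAVA, HISAT2 2.1.0, DESeq2 and the build GRCm38 without giving their roles. The counter, its strand setting and the annotation are not given in the sources used here. Gene symbols and exon lengths came from GENCODE mouse release 21, which matched 33356 identifiers. With these lengths, values below 200 fragments came out whole within 0.05 in 99.3% to 99.4% of cases, which gave the depth. Replicates differed by more than counting noise (chi-square over its degrees of freedom 4.26 to 71.6). Replicate numbers follow the order of columns within a group and pair nothing.

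Genes that reached 0.1 FPKM in 4 or more samples were tested on log2(FPKM + 1) with limma 3.58.1 (lmFit and eBayes with a variance trend) in R 4.3.3, over all 32 samples, with Benjamini-Hochberg adjustment over 22071 genes. The pseudocount of 1 shrinks the changes of weakly expressed genes. On simulated data for 3 d against 0 d, 168 of 200 genes changed 2-fold were recovered, with 3 false calls among 21915 genes tested, changed ones included. Apart from the changed genes, the simulated samples shared the same mean profile, without the shift of the median gene seen here. The false calls therefore do not give the error rate in these data. Median-ratio size factors came from 15660 genes. In each role group the called member with the largest rise and the called member with the largest fall against 0 d were described sample by sample. Of the related genes, those with the 2 largest rises and falls were named. Other members were described after their values were seen. The members and lists were chosen with earlier results of these data known. Alternatives covered the pseudocount, the filter, the scaling, the variance trend, the samples fitted, the fold threshold, recovered fragments and leaving out each sample. Python 3.11.15, numpy 2.4.6, pandas 2.3.3 and matplotlib 3.10.9 served for the other steps.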

Additional observations from a re-analysis of the deposited data

Results flagged for a closer look

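In 26 of 360 groups of 4 samples, 1 sample lay far from the other 3, where chance flags about 1 in 20, or 18. Replicate 1 of 3 d was such a sample for Hspa1b (0.3261 FPKM, others 2.476 to 2.854), Hspa4l (0.4816, others 1.075 to 1.172), Hsph1 (40.75) and Dnajb6 (62.04). Replicate 3 of 1 d was high for Hspb1 (484.2 FPKM), Cryab (336.9) and Hsf1 (7.544). High values of the remaining groups were those of Hsp90ab1 at 28 d (746.5 FPKM), Hsph1 at 5 d (41.22), Hspb8 at 7 d (2234), Bag1 at 14 d (219.6), Dnajb5 at 7 d (16.97), Tcp1 at 14 d (53.7), Cct4 at 0 d (28.08), Smyd1 at 5 d (79.67), Stip1 at 14 d (67.27), Fkbp4 at 28 d (46.41) and Ptges3 at 21 d (35.52). Low values were those of Hspb8 at 21 d (1524 FPKM), Bag1 at 0 d (95.45), Bag3 at 28 d (59.09), Dnajb4 at 7 d (10.23), Tcp1 at 0 d (27.52), Cct7 at 14 d (31.24), Unc45b at 7 d (48.12) and Hsf1 at 28 d (4.737).

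The change against 0 d differed between 28 d and 3 d, by limma's test of that difference, in 15 members. The log2 difference, 28 d minus 3 d, was positive for Hspa1a (1.00), Hspa1b (1.52), Hspa4l (0.73), Bag1 (0.95) and Smyd1 (0.90). It was negative for Hspb1 (-1.86), Cryab (-1.62), Hspa9 (-1.0), Hspe1 (-1.0), Hsph1 (-0.80), Ptges3 (-0.76), Hspb7 (-0.73), Dnajb5 (-0.72), Hspb8 (-0.64) and Bag3 (-0.61). As deposited, all 15 were called with and without replicate 1 of 3 d, and after median-ratio scaling without that sample Hspa4l fell short of 1.5-fold (0.56).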

How the results depend on the processing

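No called value of a member changed sign under any alternative run. Of 204 called values, 124 kept their call after median-ratio scaling, 152 after quantile normalization, 186 with totals that leave out mitochondrial genes (chosen after seeing the data) and 203 as TPM, and all 204 with a pseudocount of 0.1, without a filter, with a filter at an FPKM of 1, without the variance trend, with only the groups compared, without the fold threshold and with limma voom on recovered fragments. Members higher after median-ratio scaling numbered 6 for 1 d and 15, 12, 10, 16 and 13 for 5, 7, 14, 21 and 28 d, and members lower 4 for each of 1, 14 and 28 d. Quantile normalization left 18, 15 and 16 higher for 5, 7 and 14 d, beside 21 for 3 d, 23 for 21 d and 24 for 28 d. For 28 d, 2 were lower both there and with totals that leave out mitochondrial genes. As TPM, 22 were higher at 1 d and 1 lower at 21 d. Without the fold threshold, 30 were higher and 6 lower at 1 d, 4 lower at 3, 14, 21 and 28 d, and 11 higher and 31 lower at 28 d against 3 d. That threshold has no part in the F-test. Median-ratio scaling without replicate 1 of 3 d (chosen after seeing the data) moved no count for 3 d against 0 d or 28 d against 3 d by over 1.5 times, and of the calls held under both scalings it ended those of Tcp1 (0.53) and Ahsa1 (0.47) at 3 d and of Hspa4l in 28 d against 3 d (0.56). Other counts stayed within 1.5 times of those reported.

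Leaving out each sample in turn gave 11 to 14 members higher and 2 lower for 1 d, 29 to 30 and 2 for 3 d, 30 to 31 and 2 to 3 for 5 d, 24 to 30 and 3 for 7 d, 23 to 28 and 2 for 14 d, 25 and 2 for 21 d, 27 to 28 and 1 for 28 d, and 5 to 7 higher and 9 to 10 lower at 28 d against 3 d, with 43 to 44 in the F-test. In these fits 9 of the 204 values lost their call at least once. Hspa1b for 14 d missed the adjusted p of limma without 0 d replicate 4 (0.69), 14 d replicate 3 (0.69) or 14 d replicate 4 (0.60). The others fell short of 1.5-fold, namely Hspa2 for 5 d without 0 d replicate 4 (0.56) and for 7 d without 0 d replicate 3 (0.57), 0 d replicate 4 (0.51) or 7 d replicate 1 (0.52), Bag3 for 28 d against 3 d without 28 d replicate 3 (-0.52), Dnaja2 for 3 d without 3 d replicate 1 (0.54) and for 7 d without 7 d replicate 2 (0.56), Dnajb4 for 1 d without 0 d replicate 2 (0.58) or 1 d replicate 3 (0.57), Stip1 for 7 d without 0 d replicate 4 (0.57) or 7 d replicate 1 (0.56), and Ptges3 for 14 d without 14 d replicate 3 (0.58). No paired analysis was possible because the columns of the table carry no replicate numbers from the labels, so the planned fit with a replicate block was not run. Hspa1a and Hspa1b rest on few fragments in some samples, with lowest counts of 10 and 14 at 3 d. How far depth limits the calls of such low genes was not tested.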
